A study of Mus musculus with 8 samples.

Results

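The 10 genes described here carry out or control intracellular triglyceride lipolysis, the release of fatty acids from triglyceride inside the cell. They were chosen by symbol and are *Pnpla2*, *Lipe*, *Mgll*, *Abhd5*, *G0s2*, *Hilpda*, *Lipa*, *Ces1d*, *Ces1f* and *Ces1g*, and all 10 were found among the 27179 genes of the table, of which 18937 had reads. Liver RNA was sequenced from 4 wild-type and 4 homozygous V227A adult male C57BL/6NHsd mice, all killed after a 6 h fast. V227A is a germline substitution of alanine for valine in PPARɑ, made with an adenine base editor in zygotes, so every cell of the mutant mice carries it and the line is not specific to liver. The line descends from 1 heterozygous founder, crossed back to the parent strain and kept by breeding heterozygotes. The study asked how this variant alters the activity of the receptor in liver. The values used are the authors' average log2 CPM over all 8 libraries, a measure of level that pools both genotypes, so they have no SD and no n per group. Values per library, and therefore any difference between wild-type and V227A mice, were not analysed here.

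Stored triglyceride is taken apart in steps. Adipose triglyceride lipase, the product of *Pnpla2*, removes the first fatty acid at the surface of the lipid droplet, hormone-sensitive lipase (*Lipe*) acts mainly on the resulting diglyceride, and monoglyceride lipase (*Mgll*) frees the last fatty acid from glycerol. ABHD5 activates adipose triglyceride lipase, whereas G0S2 and HILPDA inhibit it. Lysosomal acid lipase (*Lipa*) degrades triglyceride and cholesteryl ester delivered to the lysosome. The carboxylesterases *Ces1d*, *Ces1f* and *Ces1g* encode enzymes of the endoplasmic reticulum in hepatocytes, where *Ces1d* is known for supplying lipid to VLDL. PPARɑ, the receptor changed in these mice, is activated by fatty acids and drives the fasting programme of fat oxidation in liver.

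The catalytic serine of these hydrolases sits in a sharp turn, the nucleophile elbow, with the pattern glycine, any residue, serine, any residue, glycine. The coding bases of this turn are shown for the hydrolases, with the matching site of the regulator *Abhd5*. Each run has 9 codons, the pattern and 2 codons on either side, read 5′ to 3′ from GENCODE vM21 transcripts of GRCm38, and the capitals mark the codon at the serine position.
Pnpla2, chr7:141455413-141455439, plus strand: atctacggagccTCGgcaggggcgctc
Lipe, chr7:25383631-25383657, minus strand: cttgcaggggacAGTgcaggtgggaat
Mgll, chr6:88808130-88809344, plus strand, split by an intron: ctcctgggccacTCCatgggcggtgcc
Lipa, chr19:34508993-34509019, minus strand: tatgtgggtcatTCTcaaggctgcacc
Ces1d, chr8:93187758-93187784, minus strand: atctttggagagTCAgcaggaggtttc
Ces1f, chr8:93269989-93270015, minus strand: atctttggagagTCAgcaggaggttac
Ces1g, chr8:93328393-93328419, minus strand: atcttcggcgagTCAgcaggaggtgaa
Abhd5, chr9:122368200-122368226, plus strand: ttgcttggacacAACctgggagggttc

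The site was located by searching for the pattern with serine in the hydrolases and with asparagine in *Abhd5*. The residue was therefore set by the search, and only its position and bases are described. Of the 7 hydrolases, the serine codon lay at codon 47 in *Pnpla2*, codon 736 of 1072 in *Lipe* and codon 122 in *Mgll*. It lay at codon 172 in *Lipa* and codon 221 in each of the 3 carboxylesterases. In *Abhd5* the codon was AAC, asparagine, at position 155, and ABHD5 is known to keep the fold of the lipase family without its catalytic serine. Its closest relative *Abhd4*, named after its values had been seen and searched with serine, had the codon AGT at position 159. It shared 53.0% of residues with *Abhd5*.
Abhd4, chr14:54262962-54262988, plus strand: ctcctggggcacAGTttgggaggattc
The pattern occurred in 0 places in G0S2 and in 0 in HILPDA. The *Mgll* and *Lipa* proteins held 2 matches each, and there the match shown is the one with histidine before the serine. The pattern is short, and 18.5% of 21511 annotated mouse proteins hold at least 1 match, so a match alone is a description and does not mark an enzyme.

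The 2 inhibitors are small proteins of 103 (*G0s2*) and 64 (*Hilpda*) residues. The longest run of residues that they share is 5 residues long, begins at residue 26 of G0S2 and residue 7 of HILPDA, and is shown in capitals because this hydrophobic stretch lies in the part of both proteins that is known to bind adipose triglyceride lipase.
G0s2, chr1:193272679-193272705, minus strand: gtgaagCTATACGTGCTGGGCagtgtg
Hilpda, chr6:29274718-29274744, plus strand: ctgaacCTCTATGTGCTGGGCatcatg

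Most of the 10 genes were abundant in liver RNA. Their median average log2 CPM was 7.22, against 1.89 for the 18937 genes with reads, and 7 of the 10 were in the top 10% of those genes by level, which began at 5.98. Per kilobase of the longest coding transcript, all 10 were above the median gene (0.73 log2 CPM per kb), and 7 were again in the top 10%. The highest member, *Ces1d*, lay 8.07 log2 units above the lowest, *Hilpda*, and 7.04 log2 units above it per kilobase of transcript, a ratio of 131, or 5.31 log2 units per kilobase of coding sequence. The reads behind an average level were estimated from the level of genes without reads, and ranged from 62.4 per library for *Hilpda* to 17258 for *Ces1d*. Counting error alone therefore gave 95% Poisson intervals of ±0.528% for *Ces1d* and ±8.88% for *Hilpda*. These intervals do not include the spread between mice. In a whole tissue, fewer cells of a type and less RNA per cell cannot be told apart.

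**Figure D1:**
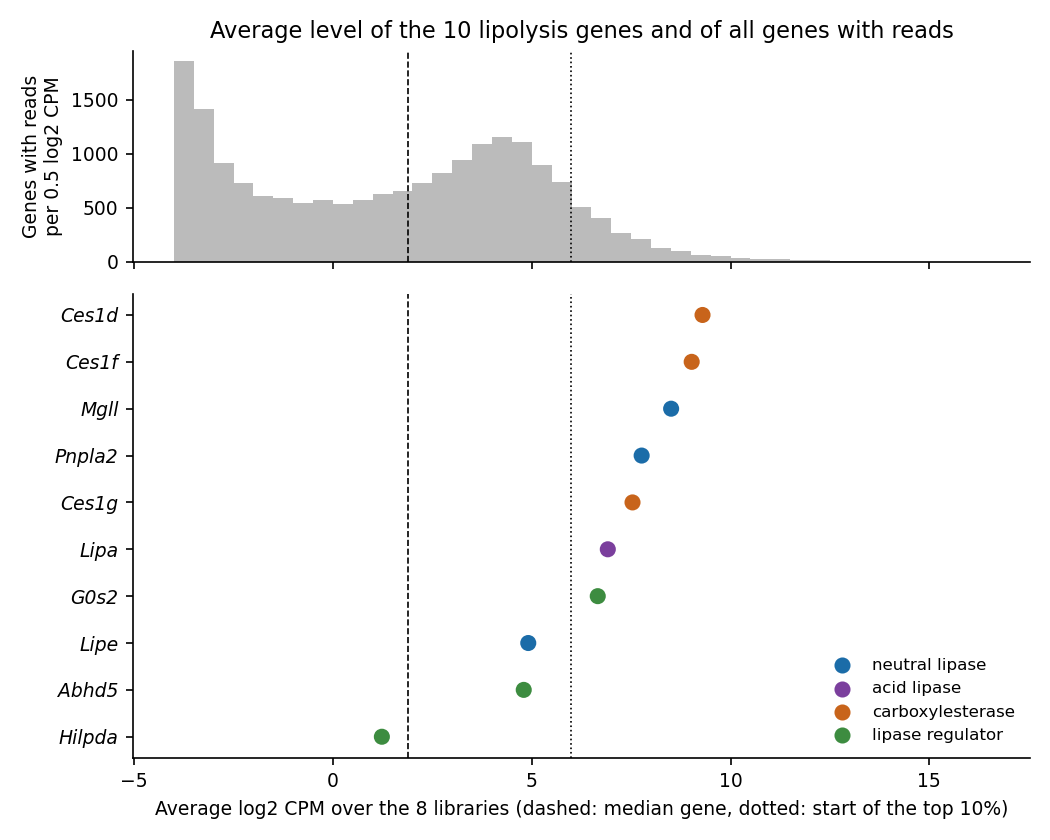
Average log2 CPM over the 8 libraries for each of the 10 lipolysis genes (lower panel, coloured by role) below the distribution of all 18937 genes with reads (upper panel, genes per bin of 0.5 log2 CPM). The dashed line marks the median gene and the dotted line the start of the top 10%, and 7 members lie to the right of the dotted line while *Hilpda* alone lies left of the dashed one.

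Of the neutral lipases, those that begin and end the sequence of hydrolysis steps were high and the middle one was lower. *Pnpla2* (chr7:141455198-141460743, plus strand) had an average log2 CPM of 7.76, about 5969 reads per library, and 6.37 log2 CPM per kb. *Mgll* (chr6:88724412-88828360, plus strand) had 8.51, about 9982 reads per library, and 6.51 per kb. *Lipe* (chr7:25379527-25398710, minus strand) had 4.91, about 825 reads per library, and 3.02 per kb. *Pnpla2* thus exceeded *Lipe* 10.2-fold and *Mgll* exceeded it 11.2-fold per kilobase of transcript. Per kilobase of coding sequence the ratios were 15.9 and 39.1, and per kilobase of all exons 14.1 and 14.0. In CPM, without a length, they were 7.22 and 12.1. *Lipe* has 5 complete coding transcripts, and the longest, of 3713 bases and 1072 residues, was used. Which of them gave the reads was not tested, and a shorter length would raise *Lipe* per kilobase and lower these ratios. *Mgll* exceeded *Pnpla2* by 0.14 log2 units per kilobase of transcript and by 1.30 per kilobase of coding sequence, a ratio of 2.46, and with all exons as the length the difference was -0.01. With the transcript that has the longest coding sequence, *Mgll* was at 8.12 and *Pnpla2* at 6.37. The size of this difference therefore depends on the length chosen. Whether neighbours in the order differ beyond the spread between mice was not analysed here. Antisense genes overlap 15.6% of the exonic bases of *Lipe* (*4732471J01Rik*, about 9.16 reads per library) and 3.29% of those of *Mgll*.

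Beside the levels of *Lipe*, which is best known from fat tissue, stood the marker list of adipocytes. All 7 adipocyte markers had reads, but 0 of 7 were in the top 10% and their median was -2.56 average log2 CPM. The highest was *Cfd* (complement factor D) at 0.76. *Plin1*, the perilipin of fat cells, was at -3.13 and *Lep*, leptin, at -3.61, close to the value of -3.78 that a gene without reads has. *Adipoq*, adiponectin, was at -1.63.

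Of the regulators of adipose triglyceride lipase, the inhibitor G0S2 was the most abundant at the RNA level. *G0s2* (chr1:193272161-193273217, minus strand) had an average log2 CPM of 6.66, about 2776 reads per library. Its transcript of 871 bases is the shortest of the members, so its level per kilobase, 6.86, was the third highest. The coactivator *Abhd5* (chr9:122351608-122381524, plus strand) had 4.80, about 762 reads per library, and 3.14 per kb. *Hilpda* (chr6:29272488-29275446, plus strand), an inhibitor known to be induced by hypoxia and fatty acids, had 1.23, about 62.4 reads per library, and 1.26 per kb, and was the only member below the median gene in CPM.

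Per kilobase of transcript, *G0s2* exceeded *Abhd5* 13.2-fold and *Hilpda* 48.6-fold. The first ratio was 24.8 per kilobase of all exons, and the second was 26.8 per kilobase of coding sequence. *Pnpla2* itself stood 0.49 log2 units below its inhibitor *G0s2* per kilobase, a ratio of 0.713, and 3.23 log2 units above its activator *Abhd5*, a ratio of 9.39 that was 5.64 per kilobase of coding sequence and 15.4 per kilobase of all exons. *G0s2* was above *Pnpla2* with all 3 lengths, at ratios of *Pnpla2* to *G0s2* of 0.456 per kilobase of coding sequence and 0.620 per kilobase of all exons. In CPM, without a length, the ratio of *Pnpla2* to *G0s2* was 2.15, so the direction depended on dividing by length. These are ratios of RNA levels between genes and say nothing of the amounts of protein. Of the exonic bases of *Abhd5*, 16.0% were shared with *A730085K08Rik*, an antisense gene, and 27.8% of the 100-base windows of its longest transcript were found in that gene. The libraries were stranded, but the strand setting of the counting is not given in the sources used here. The level of *Abhd5* is therefore uncertain, and the overlap does not show by how much.

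The acid lipase gene *Lipa* (chr19:34492318-34527474, minus strand) had an average log2 CPM of 6.91, about 3308 reads per library, and 5.34 per kb. It stood 1.03 log2 units below *Pnpla2* per kilobase, a ratio of *Pnpla2* to *Lipa* of 2.04, with a range of 1.47 to 4.05 over the other lengths. Of the 7 other acid lipase genes in the table, 6 (*Lipf*, *Lipk*, *Lipm*, *Lipn*, *Lipo1* and *Lipo4*) were at the value of genes without reads and *Lipo3* was at -0.14 average log2 CPM. *Nceh1*, a neutral cholesteryl ester hydrolase, was at 5.10, and *Lipa* exceeded it 5.30-fold per kilobase of transcript, 3.61-fold per kilobase of coding sequence and 2.72-fold per kilobase of all exons.

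The 3 carboxylesterases gave the largest part of the summed level, 60.7% of the CPM of all 10 genes, against 27.8% for the 3 neutral lipases, 5.49% for *Lipa* and 5.98% for the 3 regulators. Per kilobase of transcript the share of the carboxylesterases was 65.4%, and per kilobase of coding sequence it was 44.3%. *Ces1d* (chr8:93166068-93197838, minus strand) had an average log2 CPM of 9.30 and 8.29 per kb. *Ces1f* (chr8:93256236-93279747, minus strand) had 9.02, about 14285 reads per library, and 8.08 per kb. *Ces1g* (chr8:93302369-93337308, minus strand) had 7.53, about 5090 reads per library, and 6.28 per kb.

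Per kilobase, *Ces1d* exceeded *Ces1g* 4.04-fold and *Ces1f* exceeded *Ces1g* 3.48-fold, while *Ces1d* and *Ces1f* differed by 0.22 log2 units. The order *Ces1d*, *Ces1f*, *Ces1g* was the same with all 3 lengths, but per kilobase of all exons the ratio of *Ces1f* to *Ces1g* was 2.04 and *Ces1d* and *Ces1f* differed by 0.74 log2 units. *Ces1d* also exceeded *Pnpla2* 3.79-fold per kilobase of transcript and 2.49-fold per kilobase of coding sequence, and *Ces1g* and *Pnpla2* differed by 0.09 log2 units, a gap that turned sign with all exons as the length. The proteins of the 3 carboxylesterases are alike. *Ces1d* and *Ces1g* shared 76.1% of residues, *Ces1d* and *Ces1f* 70.6%, and *Ces1f* and *Ces1g* 65.6%. Their annotated transcripts nevertheless shared few exact stretches. Of the windows of the 3 transcripts, 0 of 100 bases and at most 1.67% of 50 bases were found exactly in a transcript of another gene. How the reads were assigned among these genes was not examined.

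**Figure D2:**
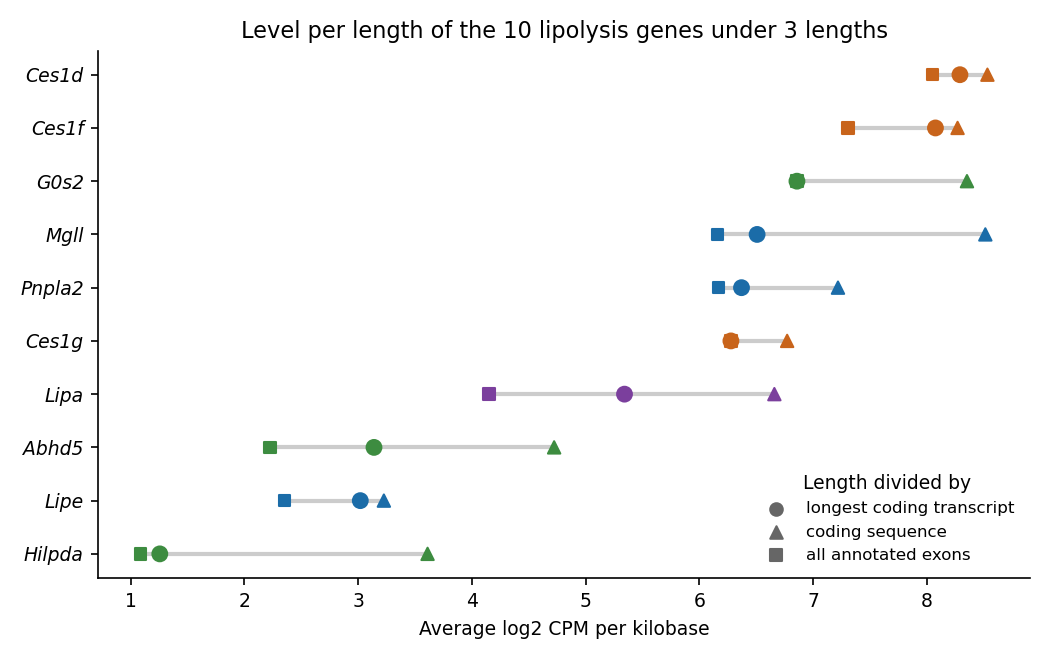
Average log2 CPM per kilobase for each of the 10 lipolysis genes, with the level divided by the length of the longest coding transcript (circles), of the coding sequence (triangles) or of all annotated exons (squares). *Ces1d* is highest with each of the 3 lengths, but per kilobase of coding sequence it is at 8.53 and *Mgll* is close behind at 8.52.

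Carboxylesterases that stay in the endoplasmic reticulum end in a retention signal of the form histidine, any residue, glutamate, leucine. The last 8 codons of the 3 members and of 3 neighbours, which were named after their values had been seen, are shown. Capitals mark the 4 codons of the signal where it is present. Whether each protein is retained or secreted was not tested.
Ces1d, chr8:93166258-93166281: tcccacagggaaCATGTTGAGCTC
Ces1f, chr8:93256432-93256455: ccccagccatacCACAATGAGCTG
Ces1g, chr8:93302908-93302931: tcccatagggaaCATGTTGAACTG
Ces1e, chr8:93201407-93201430: ctgccgacagaaCACACTGAGCTG
Ces1b, chr8:93056890-93056913: cctactgagcacagagaacacaaa
Ces1c, chr8:93099168-93099191: cctactgaacacacagaacacaaa
All 3 members carried the signal, as did *Ces1e*. *Ces1b* and *Ces1c*, the latter known as the esterase of mouse plasma, did not. Among 21511 annotated mouse proteins, 34, or 0.158%, end in this pattern.

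The *Ces1* genes form a cluster of 8 genes over 360 kb of chromosome 8, all on the minus strand, and the levels of neighbours differed widely. *Ces1c* was the highest at 11.13 average log2 CPM and exceeded *Ces1d* 3.92-fold per kilobase. *Ces1e*, which lies 3379 bases from *Ces1d*, was at 8.03, and *Ces1b* was at 6.81. At the ends of the cluster, *Ces1a*, also named after its value had been seen, was at -1.52, about 7.55 reads per library, and *Ces1h* was at the value of genes without reads. The 3 members together held 33.7% of the summed CPM of the cluster and *Ces1c* alone held 56.8%.

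**Figure D3:**
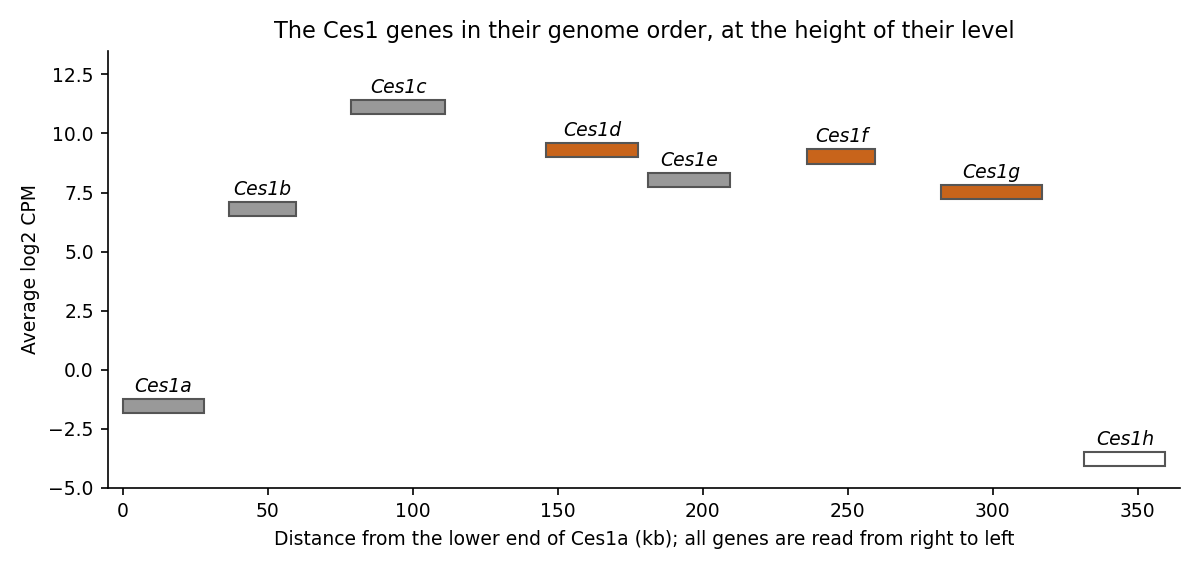
The 8 *Ces1* genes in genome order, each drawn to scale as a bar over its span (distance in kb on the horizontal axis) at the height of its average log2 CPM. Members are orange, other genes grey, and the open bar is *Ces1h*, which had no reads; the 6 inner genes lie between 6.81 and 11.13 and both outer genes below 0.

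Of 16 other carboxylesterase genes, those of the *Ces1* cluster included, 13 had reads and 7 were in the top 10%. *Ces3a* was at 11.08 and *Ces3b* at 9.38, whereas *Ces2f* and *Ces5a* were at the value of genes without reads.

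The relatives of *Pnpla2* in the patatin-like family were all lower per kilobase of transcript. *Pnpla3* was at 0.02 average log2 CPM, about 25.9 reads per library. *Pnpla2* exceeded it 107-fold per kilobase of transcript and 169-fold per kilobase of coding sequence. The 2 proteins shared 45.8% of residues, over 380 aligned residues. By the same measure HILPDA, of 64 residues, shared 48.4% with the *Lipe* protein, so the percentage alone does not mark a relative. The serine codon of *Pnpla3* lies at position 47, as in *Pnpla2*, and uses the same bases.
Pnpla3, chr15:84168000-84168026, plus strand: ttctttggctgcTCGgccggtgcactg
*Pnpla1*, which acts in skin, was at -3.69 and *Pnpla5* at -2.61. *Pnpla6*, *Pnpla7* and *Pnpla8*, which act mainly on phospholipids and lysophospholipids, were at 4.50, 7.31 and 6.63. In all, 2 of these 6 genes were in the top 10%. Per kilobase, *Pnpla2* at 6.37 was above all 6, the nearest being *Pnpla7* at 5.11.

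Among other glyceride and ester hydrolases, 9 of 9 had reads and 1, *Aadac* (arylacetamide deacetylase, an enzyme of the endoplasmic reticulum), was in the top 10%, at 8.80. *Abhd6*, a second monoglyceride lipase, was at 5.66, and *Mgll* exceeded it 4.01-fold per kilobase of transcript, 7.29-fold per kilobase of coding sequence and 3.35-fold per kilobase of all exons. *Dagla*, a diglyceride lipase known from brain, was the lowest at -0.43.

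On the lipid droplet coat, where adipose triglyceride lipase and its regulators meet, 12 of 12 genes had reads and 5 were in the top 10%. *Plin2*, the main perilipin of hepatocytes, was at 8.96, *Hsd17b13* at 8.16, *Cideb* at 8.05, *Hsd17b11* at 7.72 and *Plin5*, which binds both adipose triglyceride lipase and ABHD5, at 6.79. *Plin3* was at 5.89, *Plin4* at 5.23, *Fitm1* at 4.93, *Fitm2* at 4.27 and *Cidec* at 2.79. *Cidea* and *Plin1*, the coat genes that are also on the adipocyte marker list, were at -2.65 and -3.13.

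**Figure D4:**
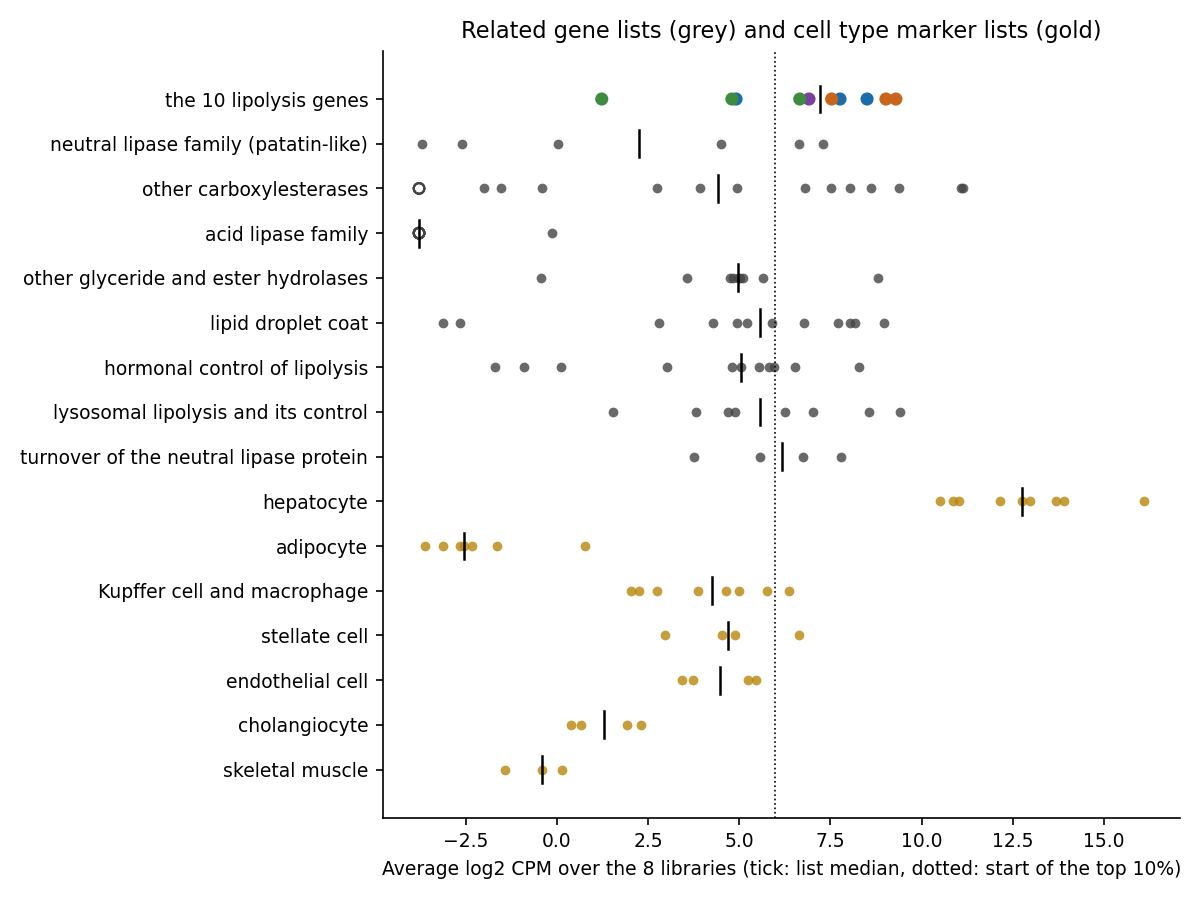
Average log2 CPM of every gene of the 8 related lists (grey) and the 7 cell type marker lists (gold), with the 10 lipolysis genes in the top row coloured by role. Open circles are genes without reads, ticks are list medians and the dotted line is the start of the top 10%, which all 9 hepatocyte markers and none of the 7 adipocyte markers pass.

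The markers of the tissue were those of liver. All 9 hepatocyte markers were in the top 10%, from *Tat* at 10.51 to *Alb* at 16.09. Markers of other liver cells were lower, with list medians of 4.26 for 8 Kupffer cell and macrophage genes, 4.70 for 4 stellate cell genes, 4.48 for 4 endothelial genes and 1.28 for 4 cholangiocyte genes. The 3 skeletal muscle markers had a median of -0.40. The part that these other cells have in the level of any member was not tested. *Ppara*, whose protein carries the substitution, was at 8.37, about 9112 reads per library.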

How the data were processed

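Liver libraries from 4 wild-type and 4 V227A mice were stranded, poly-A selected and sequenced in pairs. Per the paper's methods and the submitters' processing notes, the authors used Trimmomatic for trimming, STAR for alignment to GRCm38, featureCounts for counting per gene and edgeR for the comparison of genotypes. Versions, the strand setting of counting and the model are not given in the sources used here. The deposited table holds the average log2 CPM per gene, which the authors computed over all libraries, and 4 columns of their own comparison (log2 fold change, F, p-value and FDR), which were not used. It has 0 columns per library, so no test, SD or comparison of genotypes was made and the tests planned for such columns could not be run.

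The 8242 genes at the lowest level, -3.78, were taken as having no reads. Reads per library were estimated from that level and a prior count of 2. Of 2378 genes with totals of 1 to 5 reads, 99.9% came within 0.1 of a whole number, and the 918 genes with 1 read came out between 0.984 and 1.02. The mean effective library size was 27474001 reads, and the size of each library is unknown. The estimate was tested on data simulated with the same prior count of 2, so that test cannot judge the choice of prior count.

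Lengths, coding sequences and coordinates came from GENCODE vM21 on GRCm38, which matched 10 of 10 members and 91.4% of genes with reads. Proteins were aligned globally (BLOSUM62, gap opening 10, extension 0.5), and identity is the number of identical pairs over the shorter protein. Short proteins can score high by this measure. The 42 pairs of members other than pairs of carboxylesterases ranged from 23.4% to 48.4%. Python 3.11.15, numpy 2.4.6, pandas 2.3.3, scipy 1.17.1, Biopython 1.88 and matplotlib 3.10.9 were used. The members and gene lists were chosen with earlier results of these data known. All members are named. From each list the 3 highest genes, the lowest and any without reads may be named, and every patatin-like and droplet coat gene.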

Additional observations from a re-analysis of the deposited data

How the results depend on the processing

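No paired analysis was possible because the values pool all 8 libraries, and for the same reason no library could be left out in turn. The number of members in the top 10% was 7, and was 6, 7 and 7 when ranked among genes with an average log2 CPM of at least 0, among every gene of the table, or per kilobase of transcript. The difference between the highest and lowest member, 8.07 log2 units, fell to 7.04 per kilobase of transcript, 5.31 per kilobase of coding sequence and 6.96 per kilobase of all exons. The share of *Ces1d*, *Ces1f* and *Ces1g* in the summed level, 60.7%, was 65.4%, 44.3% and 63.4% with the same lengths. The lengths by all exons, and the share by coding length, were chosen after seeing the data. The median member had about 4199 estimated reads per library, and 2100 (2099.5) with a prior count of 1, under which the lowest genes with reads would hold 0.492 reads in total. Of the 10 members, 6 kept their place in the order per kilobase with coding length, 7 with the transcript that has the longest coding sequence, and 6 with all exons. Identity by local alignment was 70.5% for *Ces1d* and *Ces1f*, 76.1% for *Ces1d* and *Ces1g* and 66.1% for *Ces1f* and *Ces1g*. The depth limits *Hilpda* most among the members.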

Other observations

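Genes that control lipolysis by hormones were mostly present. All 11 had reads and 2 were in the top 10%. *Gcgr*, the glucagon receptor, was the highest at 8.28 average log2 CPM, followed by *Prkar1a* at 6.53 and *Prkaca* at 5.97, a regulatory and a catalytic subunit of protein kinase A. The lowest was *Prkar2b*, another regulatory subunit, at -1.71.

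Of 8 genes of the lysosome and its control, 4 were in the top 10%. *Lamp1* was at 9.40, *Lamp2* at 8.57 and *Npc1*, the lysosomal cholesterol transporter, at 7.03. The transcription factor *Mitf* was the lowest at 1.55. Of 4 genes listed for the turnover of the adipose triglyceride lipase protein, *Aup1* was at 7.80, *Ubxn4* at 6.76, *Faf2* at 5.58 and *Cop1*, a ubiquitin ligase, at 3.75. The part of each gene in that turnover was not tested.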
